A study of Mus musculus with 4 samples.

Results

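The kinetochore and spindle checkpoint genes examined here were 39 mouse genes named by function: the CENP proteins, the Ndc80, Mis12 and Ska complexes, the corona with the RZZ-Spindly proteins, shugoshin and the checkpoint proteins. A gene was included when at least 1 probe set, the group of probes that reads 1 transcript, carried its symbol and no other. All 39 were found, on 76 probe sets, among 18193 genes named in this way on the array. The samples were total RNA of mature liver from C57BL/6J mice taken 48 h after surgery. There were 2 arrays for sham-operated mice and 2 arrays for mice that had undergone partial hepatectomy, in which some lobes are cut away and the remaining liver grows back. No genotype, age or drug is named in the labels, nor the number of animals behind each array. The design calls the arrays of a group biological duplicates. The p-values reflect the variation among these 4 arrays, with the variance of each gene drawn towards that of probe sets of like signal. The fit had 2 residual and 6.02 prior degrees of freedom, so most of the weight lay on the other probe sets.

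The kinetochore is the protein assembly that joins a chromosome to spindle microtubules. Its foundation is nucleosomes carrying the histone variant Cenpa, on which the constitutive centromere proteins (Cenpc1 and the CENP-H/I/K/M, L/N, O/P/Q/U and T/W groups) sit, and these recruit the Mis12 and Ndc80 complexes that reach the microtubule. Unattached kinetochores recruit the checkpoint kinases and the Bub and Mad proteins, which hold back anaphase. In the adult liver most hepatocytes are quiescent, and partial hepatectomy makes many of them re-enter the cell cycle.

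Of the 39 genes, 38 passed a filter that left out dim probe sets, and 23 of these rose after hepatectomy at an adjusted p at or under 0.05, while 0 fell. A gene past that threshold is called here, and over all 12560 genes tested 3.57% were called higher and 1.09% lower. The median log2 fold change of the 38 was 1.89 (1.87 with genes under the control level in sham at their lower bound), against 0.02 over all genes tested. Signals did not overlap between the groups, with both hepatectomy arrays above both sham arrays, in 33 of the 38, and that held for 28.1% of all genes tested. The fold change was above 0 in 38 of 38 (52.9% of all genes tested), although Bub3 and Mad1l1 turned slightly negative when the arrays were centred on their medians, and Mad1l1 also under quantile normalization. By probe set, 28 of the 52 tested were called higher and 0 lower, where 2.51% of all probe sets tested were called higher.

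The counts and the median depended on the filter. The filter used the mean over all 4 arrays, and 10 of the 38 genes passed it only through their hepatectomy signals (Cenph, Cenpi, Ndc80, Nuf2, Nsl1, Ska1, Ska3, Cenpe, Bub1 and Sgo1), of which 9 were called. Among the 28 genes whose sham signals alone would have passed, 14 were called higher, and over all genes meeting that condition the share was 3.11%. With no filter at all, 13 of the 39 were called higher beside 1.07% of all genes. There Cenpa, Cenpk, Cenpm, Cenpp, Cenpu, Dsn1, Nsl1, Ska1, Cenpe, Ttk and Bub1b lost their calls, while Cenpf was called. With a stricter filter, at the 60th percentile, 22 genes were left, 10 of them called, and their median log2 fold change was 0.88. The share of all genes called under that filter was not worked out. Because whole liver was measured, more cells expressing a gene and more RNA of it per cell cannot be told apart.

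**Figure D1:**
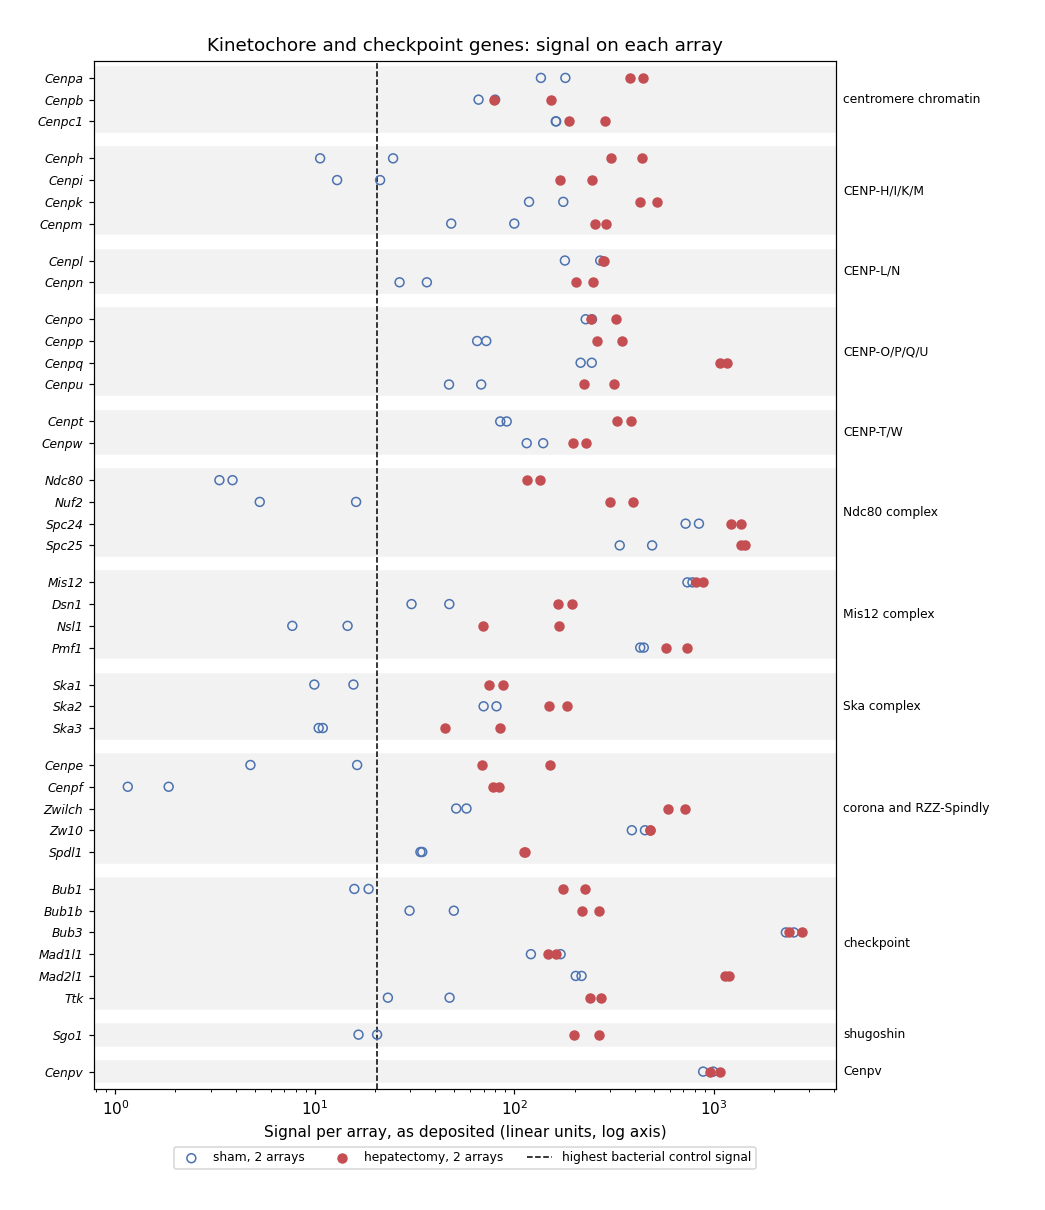
Signal of each kinetochore and checkpoint gene on the 2 sham arrays (open circles) and the 2 hepatectomy arrays (filled circles), in the deposited linear units on a log axis, grouped by subcomplex. The dashed line at 20.4 is the highest signal of the 27 bacterial control probe sets. In 33 of the 38 tested genes both filled circles lie to the right of both open circles, as they do for Cenpf, which was too dim to be tested, while the circles of Cenpb, Cenpo, Bub3, Mad1l1 and Cenpv overlap.

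Promoter sequences were available from RefSeq (assembly GRCm38.p6) for 35 of the 39 genes, covering 250 bases before to 50 bases after each transcription start. Many genes of late cell cycle phases carry a cell cycle genes homology region (CHR) near the start, an element through which the DREAM and MuvB complexes are known to repress or activate transcription. The letters searched on both strands were TTTGAA and TTCGAA for the CHR, CCAAT for the CCAAT box, and TTTGGCGC, TTTGCCGC, TTTCGCGC and TTTCCCGC for E2F sites. None of these strings contains another, and TTCGAA reads the same on both strands. CHR letters lay between 100 bases before and 50 bases after the start in 14 of 35 genes (40%), and in 719 of the 10156 tested genes with a promoter (7.08%). Over the whole window the shares were 48.6% and 16.8% for the CHR, 65.7% and 42.7% for CCAAT, and 11.4% and 4.58% for the E2F letters. Over all 32851 promoters of the table, 19.2% held CHR letters, 37.4% CCAAT and 2.26% the E2F letters. Within the list, 9 of 20 called genes (45.0%) and 4 of 14 genes tested and not called (28.6%; Bub3, Cenpw, Ska3 and Spdl1) had CHR letters near the start. Over the whole window the order was the other way round, with 9 of 20 called (45.0%) and 7 of 14 not called (50%). A match is a description of letters and not evidence of binding.

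The 150 bases from 100 before to 50 after the start are printed here for 5 called genes with CHR letters just past the start, and for 3 genes that were not called: Spdl1, which has such letters, and Mis12 and Zw10, which have none there. They were chosen after the values and matches had been seen. Capitals mark CHR and CCAAT letters on either strand. On GRCm38.p6, Bub1 lies at chr2:127831810-127831959 (minus strand), Cenpa at chr5:30666786-30666935 (plus), Ndc80 at chr17:71526808-71526957 (minus) and Sgo1 at chr17:53689266-53689415 (minus). Ttk lies at chr9:83834589-83834738 (plus), Spdl1 at chr11:34833592-34833741 (minus), Mis12 at chr11:71019511-71019660 (plus) and Zw10 at chr9:49055481-49055630 (plus).
Bub1: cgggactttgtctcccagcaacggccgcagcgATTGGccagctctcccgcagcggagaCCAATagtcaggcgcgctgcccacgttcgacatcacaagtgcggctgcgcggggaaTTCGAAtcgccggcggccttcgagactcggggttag
Cenpa: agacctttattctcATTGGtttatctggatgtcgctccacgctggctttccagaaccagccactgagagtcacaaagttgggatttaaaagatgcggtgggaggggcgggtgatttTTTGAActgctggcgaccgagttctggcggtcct
Ndc80: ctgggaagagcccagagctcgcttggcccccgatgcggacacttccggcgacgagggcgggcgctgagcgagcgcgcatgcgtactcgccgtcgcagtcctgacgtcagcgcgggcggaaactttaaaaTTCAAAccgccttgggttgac
Sgo1: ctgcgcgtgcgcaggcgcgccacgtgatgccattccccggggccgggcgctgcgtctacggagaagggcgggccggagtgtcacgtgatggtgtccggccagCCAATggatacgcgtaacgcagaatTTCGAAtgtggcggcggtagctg
Ttk: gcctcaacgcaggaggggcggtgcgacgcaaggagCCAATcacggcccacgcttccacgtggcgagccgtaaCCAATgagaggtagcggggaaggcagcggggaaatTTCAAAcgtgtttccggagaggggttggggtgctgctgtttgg
Spdl1: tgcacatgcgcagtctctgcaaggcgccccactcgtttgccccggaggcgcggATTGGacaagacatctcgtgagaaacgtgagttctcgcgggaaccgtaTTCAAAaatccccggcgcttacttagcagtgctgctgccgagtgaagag
Mis12: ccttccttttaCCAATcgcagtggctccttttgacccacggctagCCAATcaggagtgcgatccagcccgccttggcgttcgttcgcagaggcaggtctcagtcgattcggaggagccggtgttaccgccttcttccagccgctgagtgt
Zw10: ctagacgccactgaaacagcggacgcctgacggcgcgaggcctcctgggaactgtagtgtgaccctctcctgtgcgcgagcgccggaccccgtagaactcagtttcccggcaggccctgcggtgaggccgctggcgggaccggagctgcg
Counting the first transcribed base as 1, the CHR letters began at base 15 in Bub1, 17 in Cenpa, 30 in Ndc80, 28 in Sgo1, 8 in Ttk and 2 in Spdl1. They began at base 25 in Spc25 and at base 3 in Cenpf, which are not shown. The Mis12 window held 2 CCAAT boxes and no CHR letters. The Zw10 window held neither, although its longer promoter had CHR letters at base -148. A gene without these letters could still be called, since 11 of the 20 called genes with a promoter had none near the start.

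At the centromere itself, Cenpa, the histone variant that marks active centromeres, rose. Its signal was 180 and 136 in the sham group and 441 and 381 after hepatectomy. Both hepatectomy values were more than 2-fold above the higher sham value, and the log2 fold change was 1.34 ± 0.26 (SE), adjusted p = 0.0313. It was the smallest change among the called genes. Cenpa was called in 11 of the 17 settings, and was not called with no filter on dim probe sets (adjusted p = 0.0941). The call was lost when sham replicate 1 (adjusted p = 0.104), sham replicate 2 (0.178) or hepatectomy replicate 1 (0.0542) was left out. Cenpb, which binds a repeated sequence motif of centromeric DNA, read 66.1 and 80.0 in sham and 78.9 and 152 after hepatectomy. The groups overlapped, and the change of 0.54 ± 0.37 was not called (adjusted p = 0.534). Cenpc1, the protein that links Cenpa nucleosomes to the Mis12 complex, read 162 and 161 in sham and 286 and 188 after hepatectomy. Its groups did not overlap, and the change of 0.50 ± 0.29 was not called (adjusted p = 0.444).

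The 4 genes of the CENP-H/I/K/M group, which sits on Cenpa chromatin throughout the cell cycle, all rose, with a median log2 fold change of 2.45. Cenph and Cenpi passed the filter only through their hepatectomy signals. With no filter on dim probe sets these kept their calls (adjusted p = 0.0228 and 0.0395). Cenpk and Cenpm were then not called (adjusted p = 0.0717 and 0.134). Cenph had signals of 10.6 and 24.6 in sham and 437 and 305 after hepatectomy, a log2 fold change of 3.89 ± 0.38 (adjusted p = 0.00179). Cenpi had 21.2 and 12.9 against 245 and 170, a log2 fold change of 3.07 ± 0.37 (adjusted p = 0.00395). In both genes 1 sham array lay under and the other just above the bacterial control level of 20.4, so the sham transcript was near the limit of these arrays. Cenpk started higher, at 176 and 118, and reached 426 and 518, a log2 fold change of 1.65 ± 0.28 (adjusted p = 0.0183). Cenpm changed by 1.83 ± 0.36 (adjusted p = 0.0338). Both of the latter lost the call without sham replicate 2, with adjusted p of 0.112 for Cenpk and 0.140 for Cenpm.

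In the CENP-L/N pair, which recognises the Cenpa nucleosome together with Cenpc1, the members differed. Cenpn rose from 36.4 and 26.5 in sham to 203 and 247, a log2 fold change of 2.55 ± 0.32 (adjusted p = 0.00528). Cenpl read 179 and 269 in sham and 280 and 279 after hepatectomy. The higher sham array lay just under both hepatectomy arrays, and the change of 0.34 ± 0.27 was not called (adjusted p = 0.610).

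Of the CENP-O/P/Q/U group, which binds microtubules and the kinase Plk1 at the inner kinetochore, 3 of 4 genes rose. Cenpq gave 244 and 214 in sham and 1077 and 1157 after hepatectomy, a log2 fold change of 2.24 ± 0.20 (adjusted p = 0.00138), and it was called in all 16 alternative settings tried. Cenpp gave 65.0 and 72.2 against 348 and 259, a log2 fold change of 2.00 ± 0.29 (adjusted p = 0.00966, and 0.0702 without sham replicate 1). Cenpu, the subunit that Plk1 docks on, gave 68.1 and 47.0 against 222 and 315, a log2 fold change of 2.06 ± 0.32 (adjusted p = 0.0140, and 0.0790 without sham replicate 2). The values of these genes lay clearly apart. Cenpo, of the same group, overlapped on its brightest probe set at 245 and 227 in sham and 242 and 323 after hepatectomy (0.24 ± 0.25, adjusted p = 0.714). Its other tested probe sets did not overlap, at 147 and 119 against 201 and 235 and at 31.2 and 31.7 against 38.4 and 47.9, and were not called (adjusted p = 0.257 and 0.704).

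Cenpt and Cenpw are histone-fold proteins that form a second anchor for the Ndc80 complex. Cenpt rose from 84.8 and 91.4 to 383 and 328, a log2 fold change of 1.91 ± 0.26 (adjusted p = 0.00771, and 0.0607 without sham replicate 1). Cenpw read 115 and 139 in sham and 228 and 197 after hepatectomy. Its groups did not overlap, but the change of 0.71 ± 0.27 was not called (adjusted p = 0.238). A second, dimmer probe set of Cenpw read 44.2 and 72.6 against 129 and 266. It changed more, and was not called either (1.57 ± 0.41, adjusted p = 0.0909).

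The Ndc80 complex is a rod of 4 proteins that makes the main contact with the microtubule. Among its 4 genes, the microtubule-binding subunits Ndc80 and Nuf2 had the smallest adjusted p. Both passed the filter only through their hepatectomy signals. Ndc80 had signals of 3.86 and 3.32 in sham and 116 and 134 after hepatectomy, and Nuf2 had 5.29 and 16.1 against 300.2 and 394. All 4 sham values lay under the bacterial control level, so the change was at least 6.12-fold for Ndc80 and at least 16.9-fold for Nuf2. Both were called, with adjusted p of 0.00301 for Ndc80 and 0.00142 for Nuf2, and no exact fold can be given for either. Spc25, at the opposite end of the rod, rose from 337 and 490 to 1433 and 1367, a log2 fold change of 1.76 ± 0.22 (adjusted p = 0.00566). Its partner Spc24 read 840 and 721 in sham and 1210 and 1358 after hepatectomy, and its smaller change of 0.71 ± 0.18 was not called (adjusted p = 0.0847), although the groups did not overlap.

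The Mis12 complex joins the inner centromere to the Ndc80 complex. Dsn1 rose from 47.1 and 30.5 to 193 and 166, a log2 fold change of 2.01 ± 0.33 (adjusted p = 0.0176). Nsl1 rose from 7.70 and 14.6, both under the control level, to 69.5 and 167, which is at least 5.28-fold (adjusted p = 0.0282). The hepatectomy values of Nsl1 differed more than 2-fold from each other. Neither Dsn1 nor Nsl1 was called with no filter on dim probe sets (adjusted p = 0.0944 and 0.136). Dsn1 was called in 12 and Nsl1 in 10 of the 17 settings. Both calls were lost without either sham array, with adjusted p of 0.0518 and 0.0940 for Dsn1 and 0.163 and 0.0806 for Nsl1. The remaining subunits were already well detected in sham liver and were not called. Mis12 read 780 and 736 against 811 and 879 (0.16 ± 0.18, adjusted p = 0.743). Pmf1 read 445 and 427 against 730 and 577 (0.57 ± 0.21, adjusted p = 0.232). In neither gene did the groups overlap.

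The Ska complex follows the end of a shortening microtubule together with the Ndc80 complex. Ska1 rose from 9.93 and 15.6 in sham, under the control level, to 74.1 and 87.6, at least 3.95-fold (adjusted p = 0.0288). It was called in 11 of the 17 settings, and was not called with no filter on dim probe sets (adjusted p = 0.131). The call was lost without sham replicate 1 (0.186) or sham replicate 2 (0.0964). Ska3 read 10.4 and 10.9 in sham and 84.3 and 44.7 after hepatectomy. Both sham values lay under the control level and both hepatectomy values above it, at least 3.01-fold in the mean, and the gene was not called (adjusted p = 0.0649). Ska2 read 81.2 and 70.0 against 149 and 183 and was not called either (1.05 ± 0.29, adjusted p = 0.112).

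**Figure D2:**
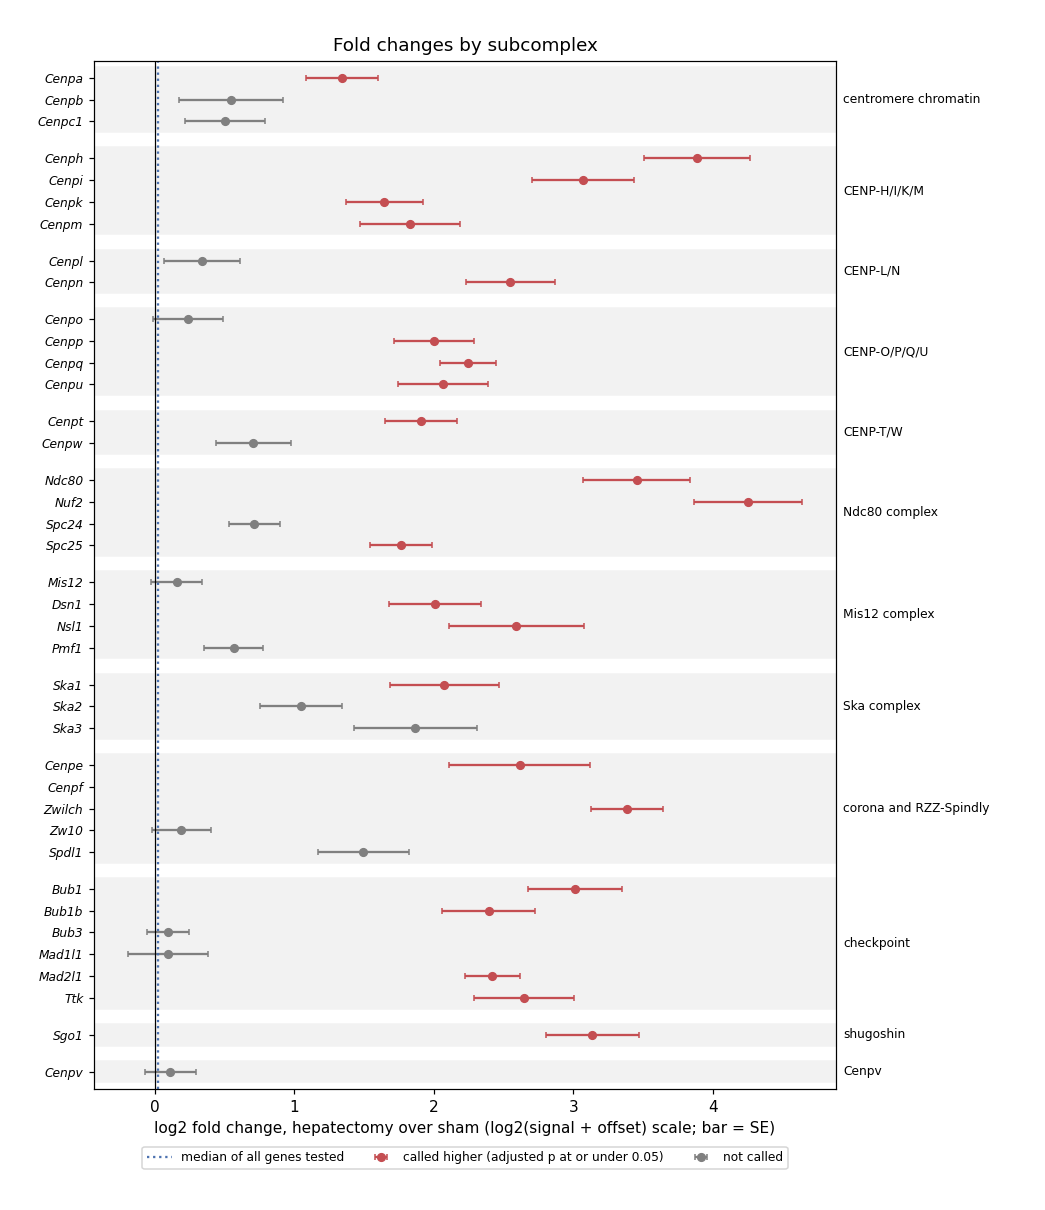
log2 fold change of hepatectomy over sham with its standard error (bars) for the 38 tested genes, by subcomplex. Filled red points were called higher and grey points were not, and the dotted line is the median of all genes tested (0.02). Called and uncalled genes stand side by side in most of the multi-gene groups. All 4 genes of CENP-H/I/K/M were called here, but Cenpk and Cenpm were not called with no filter on dim probe sets. Cenpf has no point because it was not tested. For the 7 genes under the control level on both sham arrays the points are fitted values, and only the lower bounds in the text hold.

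The fibrous corona and the Rod-Zw10-Zwilch (RZZ) complex assemble on kinetochores that are not yet attached. Zwilch, a subunit of RZZ, gave 51.0 and 57.5 in sham and 588 and 711 after hepatectomy. This was a log2 fold change of 3.38 ± 0.26 with the smallest adjusted p of the 38 genes (0.000722), and the call was kept in all 16 alternative settings. Zw10, which also acts in membrane traffic outside mitosis, read 387 and 451 against 477 and 479 in the same samples (0.19 ± 0.21, adjusted p = 0.726). Spdl1, or Spindly, the adaptor that brings dynein to RZZ, read 33.8 and 34.5 against 113 and 111. Its replicates were nearly equal and its groups far apart, yet at 1.50 ± 0.32 it missed the threshold by the smallest margin (adjusted p = 0.0501) and was called under 6 alternative settings.

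Cenpe, the kinesin that carries chromosomes to the spindle equator, rose from 4.75 and 16.3 to 151 and 69.1, at least 5.02-fold above the control level (adjusted p = 0.0321). It was called in 10 of the 17 settings, and was not called with no filter on dim probe sets (adjusted p = 0.146). Its hepatectomy arrays differed more than 2-fold, and the call was lost without sham replicate 1 (0.185) or sham replicate 2 (0.0583). Cenpf, a large coiled-coil protein of the corona, had its brightest probe set at 1.15 and 1.85 in sham and at 83.2 and 78.4 after hepatectomy. Its mean over the 4 arrays did not pass the filter, so it was not tested, and the hepatectomy signal was at least 3.96-fold above the control level. With no filter it was called (adjusted p = 0.0360).

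Among the 6 checkpoint genes 4 rose, with a median log2 fold change of 2.41 over the 6. Mad2l1, whose product forms the inhibitor of the anaphase promoting complex, gave 217 and 203 in sham and 1191 and 1130 after hepatectomy. Replicates were close in both groups (log2 fold change 2.42 ± 0.20, adjusted p = 0.000948), and the call was kept in all 16 alternative settings. Bub1, the kinase that gathers the checkpoint proteins at the kinetochore, rose from 15.8 and 18.6 to 225 and 175, at least 9.73-fold above the control level (adjusted p = 0.00307). Ttk, also called Mps1, the kinase at the head of the pathway, rose from 47.3 and 23.2 to 239 and 273 (log2 fold change 2.65 ± 0.36, adjusted p = 0.00771). Bub1b, or BubR1, a subunit of the inhibitor complex, changed by 2.39 ± 0.33 (adjusted p = 0.00868, and 0.0548 without sham replicate 1).

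The other two checkpoint genes were not called, and the groups overlapped on the probe sets that stood for them. Bub3, the adaptor shared by Bub1 and Bub1b, read 2291 and 2512 in sham and 2769 and 2367 after hepatectomy (0.09 ± 0.15, adjusted p = 0.826). Mad1l1, the kinetochore receptor of Mad2l1, read 121 and 170 against 147 and 161 (0.10 ± 0.29, adjusted p = 0.915). A second, dimmer probe set of Bub3 read 479 and 465 against 671 and 716, with groups apart, and was not called either (0.55 ± 0.19, adjusted p = 0.203).

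Sgo1, the shugoshin that protects centromeric cohesin until anaphase, rose from 20.5 and 16.5 to 264 and 198, a log2 fold change of 3.13 ± 0.33 (adjusted p = 0.00266). As in Cenph and Cenpi, 1 sham array lay under and the other just above the control level of 20.4, so the size of this fold is uncertain. Cenpv, a protein of centromeric heterochromatin, read 882 and 991 in sham and 951 and 1075 after hepatectomy. Its groups overlapped and it was not called (0.11 ± 0.18, adjusted p = 0.823).

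Within the subcomplexes the fold changes were spread widely. Over the 10 groups with several tested genes, the genes of highest and lowest fold change were compared. In the 6 pairs without a gene that lay under the control level on both sham arrays, the log2 fold changes differed by 0.84 (Cenpa over Cenpc1) to 3.19 (Zwilch over Zw10). In all 10 pairs the ratio of the genes was higher on both hepatectomy arrays than on both sham arrays, but each pair was picked for its difference and carries no test. Of the 15 tested genes that were not called, 10 had both hepatectomy arrays above both sham arrays and 5 overlapped. Over all genes tested, called or not, the hepatectomy arrays lay above in 28.1%. An unadjusted p under 0.05 was reached by 6 of the 15 (Cenpw, Spc24, Pmf1, Ska2, Ska3 and Spdl1). The share of all uncalled genes that reached it was not counted. A missed call does not show that a gene was level.

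Several probe sets were tested for 11 genes. They were all called for 3 (Cenpn, Cenpp and Cenpu) and none was called for 5 (Cenpo, Cenpw, Pmf1, Zw10 and Bub3). In the other three the probe sets were split. The second probe set of Ska2 read 40.9 and 65.3 in sham and 177 and 189 after hepatectomy, and was called (1.66 ± 0.33, adjusted p = 0.0341). The second of Spc25 read 47.7 and 62.1 against 78.1 and 22.8, with overlapping groups (-0.27 ± 0.51, adjusted p = 0.850), and the mean of both probe sets of Spc25 was not called (0.74, adjusted p = 0.264). Of the 3 probe sets of Bub1b, 2 were called and the third was not (1.18 ± 0.44, adjusted p = 0.228). The only tested Cenpa probe set is of a type (_a_ in its name) that can read several transcripts of a gene. Without _s_, _x_ and _a_ probe sets, Cenpa stood by a dimmer probe set that the filter had left out of the main fit. That probe set read 19.2 and 19.6 in sham and 60.8 and 15.7 after hepatectomy. Both sham values and the lower hepatectomy value lay under the control level of 20.4. It was not called (0.55, adjusted p = 0.712), which is no second test of the brighter probe set.

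**Figure D3:**
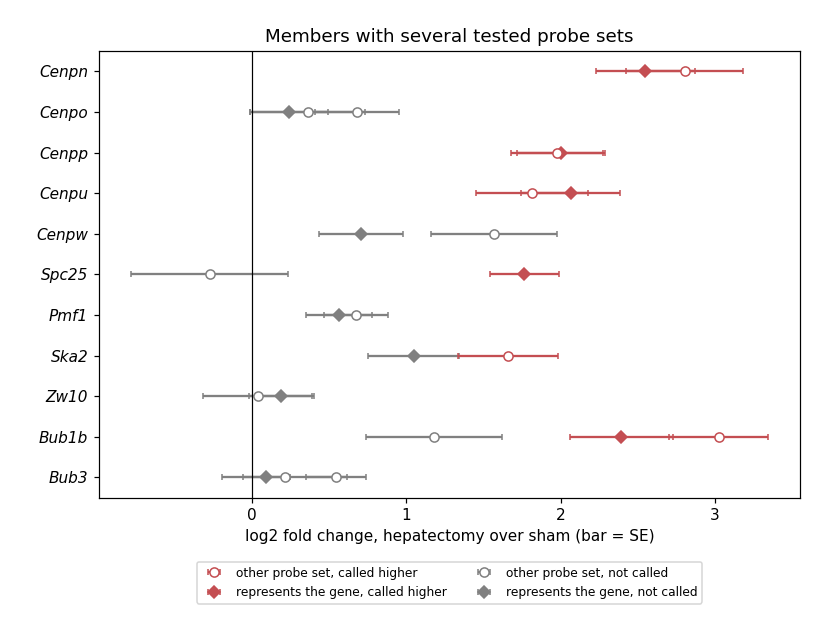
log2 fold change with its standard error (bars) of every tested probe set of the 11 genes that have several. Diamonds are the probe set that stood for the gene, open circles the others, red those called higher and grey those not called. The probe sets of Cenpn, Cenpp and Cenpu lie together above 1.81, while those of Spc25 lie apart, at 1.76 and -0.27.

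Of the other genes of the pathway, a list drawn up by function with earlier results of these data known, 14 of the 35 tested (of 36 on the array) were called higher and 0 lower, beside 3.57% and 1.09% of all genes tested. The median log2 fold change was 0.75. Here too 9 genes passed the filter only through their hepatectomy signals, and 7 of these were called (Cenps, Kif2c, Kif18a, Oip5, Aurkb, Plk1 and Cdc20). Among the 26 whose sham signals alone would have passed, 7 were called higher, beside 3.11% of all such genes. Of 19 other kinetochore subunits and motors, 5 rose: Kntc1, the Rod subunit that holds Zwilch and Zw10 (4.02 ± 0.31), Kif2c, a kinesin that takes microtubules apart (at least 8.92-fold), Cenps of the inner kinetochore (at least 7.71-fold), Sgo2a and Kif18a. The third RZZ subunit thus rose with Zwilch, while Zw10 did not pass the test. Knl1, the platform for Bub1 and Bub1b, was not called on the brightest of its 2 tested probe sets (1.09, adjusted p = 0.206). Nor was its partner Zwint on the brightest of 6 (0.22, adjusted p = 0.501). In neither gene did the groups overlap on that probe set. Of 6 Cenpa loading factors, 2 rose, Mis18a (1.41 ± 0.21) and Oip5 (3.33 ± 0.53, with 1 sham array under the control level), both parts of the Mis18 complex that prepares the centromere for new Cenpa. The call of Mis18a depended on both sham arrays (adjusted p = 0.100 without sham replicate 1 and 0.0691 without sham replicate 2).

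The chromosomal passenger complex corrects wrong attachments, and 5 of the 6 genes of that list with its kinases were called. Aurkb, its kinase, read 12.8 and 15.9 in sham and 491 and 350.2 after hepatectomy, at least 20.3-fold. Birc5, or survivin, changed by 3.71 ± 0.18 and Incenp, the scaffold, by 2.92 ± 0.27. Haspin, which marks the chromatin the complex binds, was not called (1.24 ± 0.36, adjusted p = 0.118). Of the 4 tested checkpoint effectors, Cdc20, the activator that Mad2l1 and Bub1b hold back (4.48 ± 0.52, with 1 sham array under the control level), and Trip13, which remodels Mad2l1 (2.15 ± 0.27), were called, while Fzr1 and Mad2l1bp were not.

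The trimmed mean signal was 498 on every array and the median 46.4 to 57.5. The signal ratio of the 3' to the 5' probe sets of beta-actin, a sign of RNA quality, overlapped between the groups (2.75 and 2.35 against 2.40 and 2.02). Some marker lists differed between the groups. The 8 hepatocyte markers summed to 121557 and 105107 in sham and 114679 and 107633 after hepatectomy, with 0 of 8 called, and the 8 endothelial markers to 7564 and 7809 against 6789 and 7078, with 0 of 8 called. Neutrophil and monocyte markers summed to 523 and 440 against 10164 and 3629 (2 of 3 tested called, S100a8 and S100a9, with 3 of 7 under the control level on all arrays). Stellate cell markers summed to 7311 and 9572 against 12550 and 11009 (3 of 8 called), and cholangiocyte markers to 459 and 530 against 1279 and 744 (0 of 4 tested called). Macrophage markers summed to 15747 and 15985 against 16567 and 16926 (1 of 9 called higher and 1 lower). Lymphocyte markers (984 and 962 against 692 and 596, 0 of 8 called) and erythroid markers (6615 and 6161 against 4546 and 4750, 1 of 3 tested called lower) were lower in sum. All 8 proliferation genes used as a reference rose, with summed signals of 5667 and 5612 against 19629 and 18186. The part of these cell types in the kinetochore values was not tested.

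Hepatectomy replicate 1 stood apart. Its adrenal cortex markers summed to 19589, against 244 and 207 in sham and 224 on hepatectomy replicate 2, and its fat cell markers to 6748, against 1226, 1339 and 2881. Over the 38 kinetochore and checkpoint genes, the median log2 difference of hepatectomy replicate 2 minus replicate 1 was -0.01, and 18 were higher on replicate 2. Over all 12560 genes tested it was -0.03, and 5858 were higher on replicate 2. Single genes differed: Cenpe (151 and 69.1) and Ska3 (84.3 and 44.7) were higher on replicate 1, and Nsl1 (69.5 and 167) on replicate 2. Whether the source of those markers affected the kinetochore and checkpoint genes was not tested. Without hepatectomy replicate 1, 20 of 35 tested were called higher, beside 3.51% of all genes, and their median log2 fold change was 1.78.

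**Figure D4:**
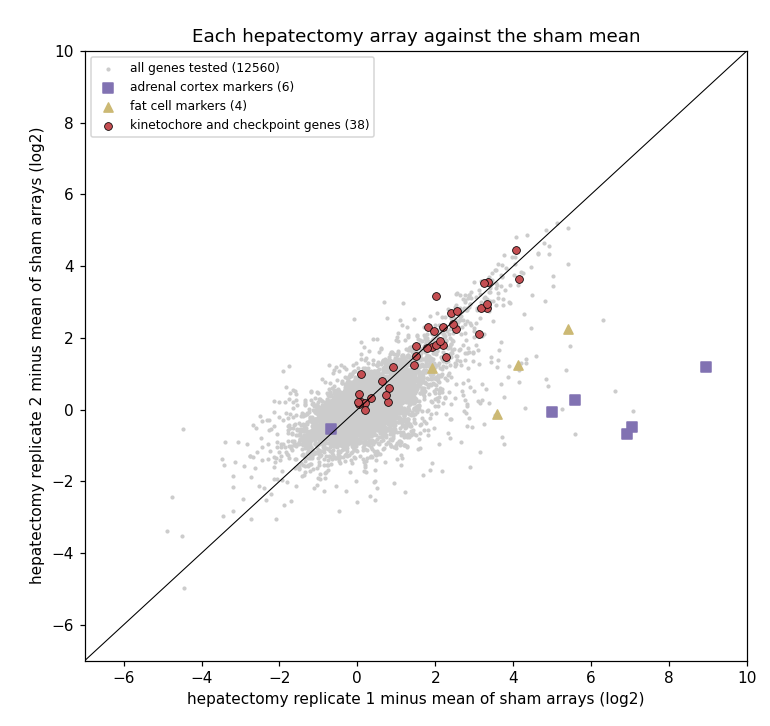
log2 difference of each hepatectomy array from the mean of the sham arrays, with replicate 1 on the horizontal and replicate 2 on the vertical axis, and the line of equal values. Of the 38 kinetochore and checkpoint genes (red), 18 lie above the line, beside 5858 of the 12560 genes tested. Most of the 6 adrenal cortex markers (squares) lie far to the right, high on replicate 1 alone.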

How the data were processed

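The authors deposited linear signal intensities, 1 for each probe set on each array. GCOS 1.4 was used, per the submitters' processing notes, with settings not stated in the labels. The trimmed means show that each array was scaled to a common level before deposit. The platform annotation gave the symbols: of 45037 probe sets that are no controls, 34945 had 1 symbol, 932 several and 9160 none.

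Signals were turned to log2 after adding 8.57 (their 20th percentile), so changes of dim genes are understated. Dim probe sets, whose mean log2 value lay below 5.09 (40th percentile, a signal of about 25.4), were left out, and 27022 were tested with lmFit and eBayes (mean-variance trend, two-sided) of limma 3.58.1 in R 4.3.3, hepatectomy against sham, with Benjamini-Hochberg adjustment over all of them. The code of the fit was run on simulated data drawn from its own variance model with independent noise. Such a run cannot show that the calls made here are right. A gene stood by its brightest tested 1-symbol probe set. Where both sham arrays lay under 20.4, the highest of 27 Bacillus subtilis control signals, the fold is the geometric mean of the hepatectomy signals over that level.

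Every kinetochore and checkpoint gene is named. Array values are given for up to 3 called genes per subcomplex with the smallest adjusted p and for each gene tested and not called; of each pathway list up to 3 called genes are given with values. The genes, lists and tests were chosen with earlier results of these data known. Offset, filter, scaling, variance model, probe set choice, replicate block and single arrays left out were tried as alternatives. A fit with an array left out has a single array in that group, whose spread is then not measured. Replicate numbers are shared between groups as numbers only. Over the 27022 probe sets tested, the log2 difference of replicate 1 minus replicate 2 in sham correlated at 0.10 with that in hepatectomy. No batch could be tested, as the labels name no scan date or animal.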

Additional observations from a re-analysis of the deposited data

How the results depend on the processing

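The kinetochore and checkpoint genes called higher (23 of 38) were 13 with no filter on dim probe sets, 10 of the 22 left under a filter at the 60th percentile and 15 with no mean-variance trend, where genes called over the whole table went from 449 to 194, 418 and 164. The filter also changed how many genes were tested (12560 in the main fit, 18193 with no filter), so these counts are not shares. The pathway genes called higher went from 14 to 9, 7 and 7 under the same settings. Of the 23 calls, 12 were kept with no filter, 14 with no trend and 15 without either sham array; Cenpq, Mad2l1 and Zwilch were called in all 17 settings. Leaving out 1 array gave 16 to 20 called kinetochore and checkpoint genes, 11 to 13 pathway genes and 211 to 840 genes in all, of which 211 came without sham replicate 1, 273 without sham replicate 2 and 840 without hepatectomy replicate 2. In no setting was a kinetochore or checkpoint gene called lower.

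The median log2 fold change of 1.89 became 2.00 with an offset of 1, 1.66 with an offset at the 40th percentile, 0.88 with the filter at the 60th percentile (which drops dim genes), 1.78 with arrays centred on their medians, 1.81 under quantile normalization and 1.76 with signals under the control level set to it, a setting chosen after seeing the data. It was 1.78 to 1.91 with 1 array left out. Centring on the medians moved the median of all genes from 0.02 to -0.08. The sign changed in 3 genes, none of them called there. Bub3 was -0.015 after centring and -0.019 to 0.21 with 1 array left out. Mad1l1 was -0.013 after centring, -0.019 under quantile normalization and -0.14 to 0.33 with 1 array left out. Spc25 was -0.27 without _s_, _x_ and _a_ probe sets, where it stood by its second, dimmer probe set. Centring moves the fold changes of all genes by the same amount. The cause of the other sign changes of Bub3 and Mad1l1 was not tested.

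With the replicate block, 847 of the 12560 genes tested and 26 of the 38 kinetochore and checkpoint genes were called higher. Ska3, Spc24 and Spdl1 gained a call (adjusted p = 0.0137, 0.0447 and 0.0187), and all 23 calls were kept. The group size of 2 arrays limits all tests, and an exact permutation test on 4 arrays cannot give a p under 0.333. Dim signals near the control level limit the folds of 8 of the 39 kinetochore and checkpoint genes and 5 of the pathway genes to lower bounds.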
